A study of Saccharomyces cerevisiae with 4 samples.

Results

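The 10 genes described here encode 7 glucose carriers of the plasma membrane, HXT1 to HXT7, the glucose sensors SNF3 and RGT2, and the transcription factor RGT1, and they were taken by name from a table of 6697 genes of budding yeast (Saccharomyces cerevisiae). All 10 had a row and passed the filter on low values. The wild type (WT) and the strain 9Myc-Swd2, in which 9 Myc epitopes were fused to the N terminus of Swd2, were each measured in 2 libraries of total RNA. Both strains were grown in YPD, a rich medium with 2% glucose, at 30 °C and were harvested at an OD600 of 1.0. Swd2 is a subunit of the histone H3 lysine 4 methyltransferase complex COMPASS and of the cleavage and polyadenylation factor, and the comparison asked how mRNA levels differed when it was tagged. The labels name neither the clones nor separate cultures, so the p-values measure the spread between these libraries, which may be technical.

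Yeast takes up hexoses by facilitated diffusion through a family of carriers that differ in affinity for glucose. Hxt1 and Hxt3 are low-affinity carriers that serve cells in abundant glucose, Hxt2, Hxt6 and Hxt7 are high-affinity carriers, and Hxt4 and Hxt5 are of intermediate affinity, although Hxt4 is also counted with the high-affinity carriers. Snf3 and Rgt2 resemble carriers but act as receptors for low and high glucose. When they bind glucose, the casein kinases Yck1 and Yck2 and the ubiquitin ligase SCF-Grr1 bring about the loss of Mth1 and Std1, the partners that Rgt1 needs to repress HXT genes. A second branch, through the kinase Snf1 and the repressor Mig1, represses high-affinity carriers such as HXT2 and HXT4 in high glucose.

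The libraries held between 7849193 and 8388090 reads assigned to genes. Values are read counts that the authors divided by 1 size factor per library. The log2 fold change (log2FC) compares 9Myc-Swd2 with WT, so that a positive value means a higher level in the tagged strain. SWD2 itself was at 335 and 351 normalized counts in WT and at 1080.4 and 969 in 9Myc-Swd2. The series' design text calls the strains isogenic, but they also differed in LEU2, a gene of leucine synthesis, at 31.4 and 22.4 against 2276 and 2163 normalized counts. Genes of chromosome XI, which carries SWD2 and RGT1, were higher as a whole, with 310 of 342 tested genes higher. Off this chromosome, 18.5% of 6161 tested genes were higher. Chromosome XI values are therefore given beside RGT1. PDC1, TDH3, ENO2 and ADH1, genes of glycolysis and ethanol formation, were read as markers of growth on glucose. Their summed level lay between 235026 and 252835 normalized counts in the 4 libraries. Within this sum the genes moved both ways. From WT to 9Myc-Swd2 the mean of PDC1 went from 43156 to 53176 and that of TDH3 from 91847.5 to 93789.7. The mean of ENO2 went from 54462 to 49766 and that of ADH1 from 56524 to 41013.7.

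The DNA of the members bears on the values in 2 ways. HXT6 and HXT7 are nearly the same gene, so that most reads cannot be assigned to one of them. Of their 1713 coding bases 3 differ, and these are shown because they are the only coding bases that separate the 2 genes. The stretch from coding position 1609 to 1698, counted from 1 at the A of the start codon, is given below, on the minus strand of chromosome IV (RefSeq, R64), with the differing bases in capitals. It lies at chrIV:1159623-1159712 for HXT6 and at chrIV:1154231-1154320 for HXT7, and the differences, HXT6 first, are T1632C, G1666A and T1677C.
HXT6: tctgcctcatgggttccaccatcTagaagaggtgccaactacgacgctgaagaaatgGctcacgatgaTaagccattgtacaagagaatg
HXT7: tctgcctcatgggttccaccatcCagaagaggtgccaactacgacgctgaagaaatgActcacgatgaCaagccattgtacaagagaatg
Of the 50-base words of either coding sequence, 4.9% occurred once in the genome. That share was 85.1% for HXT3, 95.0% for HXT1, 96.0% for HXT5, 97.5% for HXT4 and 100% for HXT2, SNF3, RGT2 and RGT1. How reads with several matches were counted is not given in the sources used here, so HXT6 and HXT7 are uncertain one by one.

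Upstream sequence was searched for CGGANNA, the sequence that Rgt1 recognizes, and for the Mig1 core, read as GCGGGG or CCGGGG or GTGGGG or CTGGGG, on both strands of the 1000 bases before each coding start. Of 5996 such windows in the genome, 66.5% held at least 1 CGGANNA and 41.8% at least 1 Mig1 core. HXT3 had 9 matches of CGGANNA and HXT1 had 8, and theirs were the only 2 of the 5996 windows with 8 or more. HXT5 had 4, HXT2, HXT4, HXT6 and RGT1 had 3 each, HXT7 had 2, and SNF3 and RGT2 had 0. The Mig1 core was found 4 times before HXT2 and 4 times before HXT4, a number reached by 0.83% of windows. It was found 3 times before HXT6, 2 times before each of HXT1, HXT3, HXT7 and SNF3, 1 time before HXT5 and 0 times before RGT2 and RGT1. The motifs overlapped each other in 0 of these windows. A match is a description of the sequence and does not show binding. For each of the 2 transporter genes that rose and the 2 whose falls were the larger, the 260 bases with the most CGGANNA matches (the nearest to the start codon where several stretches tie) are printed in the direction of the gene (RefSeq, R64), with the matches on either strand in capitals. They lie at chrVIII:292850-293109, minus strand, for HXT1, at chrIV:1164939-1165198, minus strand, for HXT3, at chrXIII:287499-287758, plus strand, for HXT2, and at chrVIII:288977-289236, minus strand, for HXT4.
HXT1: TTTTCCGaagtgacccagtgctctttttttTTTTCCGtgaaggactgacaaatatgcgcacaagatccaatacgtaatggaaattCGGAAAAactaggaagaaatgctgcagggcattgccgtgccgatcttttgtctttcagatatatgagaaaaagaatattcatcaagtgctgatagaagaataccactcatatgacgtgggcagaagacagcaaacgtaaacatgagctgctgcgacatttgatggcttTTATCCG
HXT3: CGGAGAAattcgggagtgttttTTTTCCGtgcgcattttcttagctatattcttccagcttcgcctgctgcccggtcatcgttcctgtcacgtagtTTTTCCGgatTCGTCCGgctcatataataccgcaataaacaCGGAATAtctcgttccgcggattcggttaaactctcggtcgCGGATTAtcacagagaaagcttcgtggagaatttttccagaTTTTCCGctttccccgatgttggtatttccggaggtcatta
HXT2: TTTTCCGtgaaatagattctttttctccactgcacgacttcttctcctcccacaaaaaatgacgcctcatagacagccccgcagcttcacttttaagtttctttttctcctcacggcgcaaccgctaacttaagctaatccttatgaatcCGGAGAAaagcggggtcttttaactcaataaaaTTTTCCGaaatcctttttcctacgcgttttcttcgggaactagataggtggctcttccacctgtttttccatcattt
HXT4: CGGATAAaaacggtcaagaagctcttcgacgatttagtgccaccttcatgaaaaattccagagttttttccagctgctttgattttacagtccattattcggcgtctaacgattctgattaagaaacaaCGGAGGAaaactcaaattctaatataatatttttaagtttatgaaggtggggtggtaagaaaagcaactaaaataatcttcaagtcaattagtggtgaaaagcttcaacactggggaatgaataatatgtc
The HXT1 stretch holds 4 matches and ends 225 bases before the start codon, and the HXT3 stretch holds 7 and ends 279 bases before it. The HXT2 and HXT4 stretches hold 3 and 2 matches.

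The low-affinity carrier genes were higher in the tagged strain, and HXT2 and HXT4 were lower. HXT1 rose 2.42-fold and HXT3 1.42-fold, while HXT2 and HXT4 fell to 0.638 and 0.707 of their WT levels. The sensor gene RGT2 and the repressor gene RGT1 rose, and SNF3 and HXT5 did not pass the test. In all, 4 of the 10 members were higher and 3 were lower at a limma-trend adjusted p under 0.05. Of all 6503 genes tested, 22.3% (1448) were higher and 21.4% (1393) lower. With libraries scaled to their total reads these counts were 1185 and 1721, and those of the members were again 4 and 3. Off chromosome XI, 3 of 9 members were higher and 3 lower, where 18.5% and 22.6% of 6161 genes were. The 2 groups did not overlap in 7 of the 10 members, and in 71.6% of all genes tested. In bulk RNA, fewer cells that express a gene and less RNA per cell cannot be told apart.

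**Figure D1:**
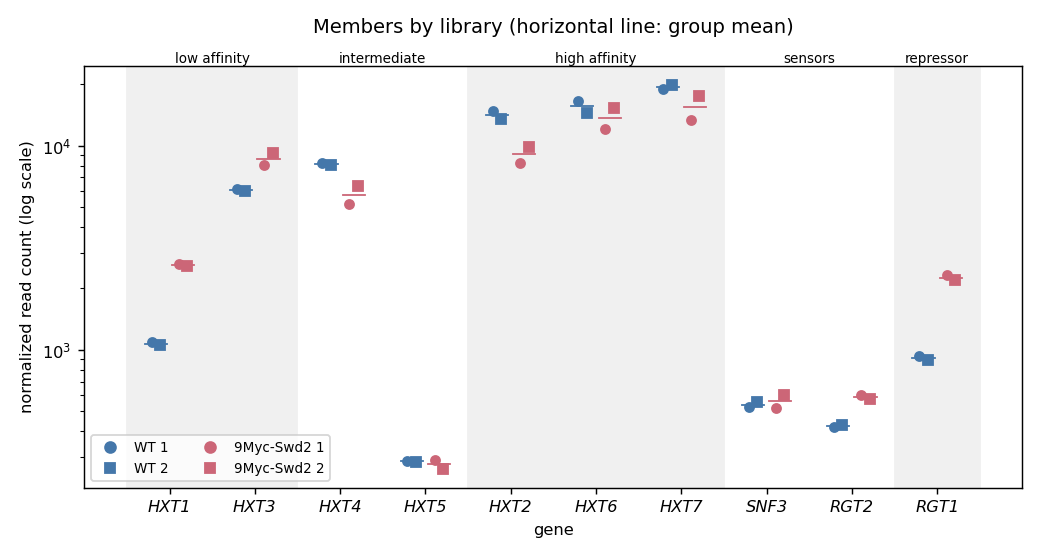
Normalized read count (log scale) of the 10 members in each library, with WT in blue, 9Myc-Swd2 in red, and a line at each group mean. HXT1, HXT3, RGT2 and RGT1 sit higher in both tagged libraries, HXT2, HXT4 and HXT7 sit lower, and HXT5, HXT6 and SNF3 overlap between the groups.

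Among the low-affinity carriers, HXT1 (YHR094C, R64 chromosome VIII, 290913 to 292625, minus strand, 1 exon) had levels of 1087 and 1061 normalized counts in WT and of 2631 and 2579 in 9Myc-Swd2. Both tagged libraries stood far above both WT libraries, and the libraries of a group lay close together. Group means were 1074 ± 18.3 in WT and 2605 ± 36.8 in 9Myc-Swd2 (SD, n = 2 in either strain), with a log2FC of 1.28 ± 0.07 (SE, adjusted p = 1.7e-10 by limma-trend). Of the 6161 genes tested off chromosome XI, 25 had a larger log2FC. HXT3 (YDR345C, chromosome IV, 1162957 to 1164660, minus strand) was at 6140.5 and 6009 in WT and at 8042 and 9196 in 9Myc-Swd2. The groups did not overlap, but the 2 tagged libraries lay further apart than the 2 WT libraries. Its log2FC was 0.50 ± 0.08 (adjusted p = 7.19e-05 by limma-trend), and 402 genes off chromosome XI had a larger one.

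Of the intermediate carriers, HXT4 (YHR092C, chromosome VIII, 287081 to 288811, minus strand) was at 8200.04 and 8030.2 normalized counts in WT and at 5190.2 and 6334 in 9Myc-Swd2. Both tagged libraries were below both WT libraries, with the first tagged library the lower. The mean fell from 8115 ± 120.1 to 5762 ± 809, a log2FC of -0.50 ± 0.09 (adjusted p = 0.000171 by limma-trend). With no filter on low values the adjusted p was 0.0598. HXT5, a carrier known from slow-growing and stationary cells, was the weakest member per length, at 287 and 282 in WT and 290.3 and 262 in 9Myc-Swd2. The groups overlapped, and its log2FC of -0.04 had a 95% confidence interval of -0.27 to 0.18 (adjusted p = 0.77 by limma-trend).

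The high-affinity carrier HXT2 (YMR011W, chromosome XIII, 288079 to 289704, plus strand) was at 14819.6 and 13561.5 normalized counts in WT and at 8235 and 9922 in 9Myc-Swd2. The lower WT library stood well above the higher tagged one. Its mean fell from 14190.5 ± 889.6 to 9078 ± 1193, a log2FC of -0.65 ± 0.10 (adjusted p = 2.87e-05 by limma-trend). Of the genes off chromosome XI, 279 had a lower log2FC.

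HXT7 (YDR342C, chromosome IV, 1154216 to 1155928, minus strand) was at 18930.0 and 19897 in WT and at 13376 and 17590.1 in 9Myc-Swd2. HXT6 (YDR343C, chromosome IV, 1159608 to 1161320, minus strand) was at 16619 and 14552 in WT and at 12124 and 15288 in 9Myc-Swd2. In both genes the first tagged library was the lowest of the 4, and the second lay closer to WT, within the WT range for HXT6. HXT7 had a log2FC of -0.34 ± 0.11 and passed (adjusted p = 0.0216 by limma-trend), and HXT6 had -0.19 with an interval of -0.42 to 0.04 and did not (0.16). The call of HXT7 was lost without WT 1 (log2FC -0.38), without WT 2 (-0.30) and without 9Myc-Swd2 1 (-0.14). Without 9Myc-Swd2 2 its log2FC was -0.54. HXT6 had -0.36 without 9Myc-Swd2 2 and -0.02 without 9Myc-Swd2 1. In the authors' deposited table HXT7 has -0.33 with an adjusted p of 0.21. Summed as 1 feature, which was decided after seeing the data, the pair was at 35549 and 34448 in WT and at 25500.0 and 32878 in 9Myc-Swd2. The sum had a log2FC of -0.27, an interval of -0.54 to -0.01 and a limma-trend adjusted p of 0.087, so that a fall of the pair did not pass.

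**Figure D2:**
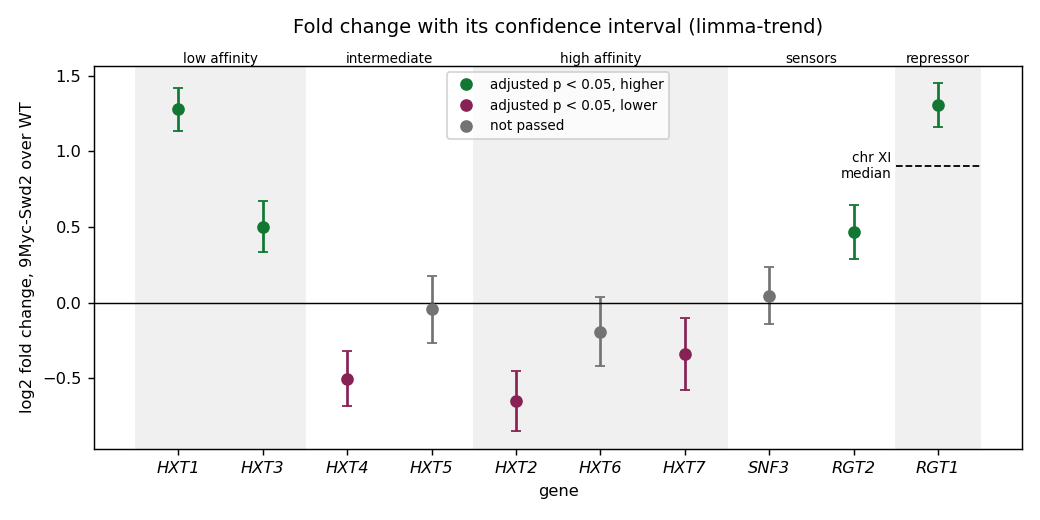
Log2 fold change of 9Myc-Swd2 over WT for each member, with its 95% confidence interval from limma-trend, coloured by the call at an adjusted p of 0.05, with a dashed line at the chromosome XI median of 0.90 beside RGT1. HXT1 (1.28) and RGT1 (1.31) stand highest and HXT2 (-0.65) lowest, and the intervals of HXT5, HXT6 and SNF3 span 0.

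Levels of different genes were compared as normalized reads per kb of coding length. In WT the order from the top was HXT7 (11333 ± 399), HXT6 (9098 ± 853), HXT2 (8727 ± 547), HXT4 (4688 ± 69.4), HXT3 (3565 ± 54.8) and HXT1 (627 ± 10.7). HXT6 and HXT2 overlapped between libraries, and the other neighbours in this order did not. In either strain the places of HXT6 and HXT7 depend on how reads that match both were counted, which is not given. In 9Myc-Swd2 the order was HXT7 (9038.5 ± 1739.6), HXT6 (8001 ± 1306), HXT2 (5583 ± 734), HXT3 (5058 ± 479), HXT4 (3329 ± 467) and HXT1 (1521 ± 21.5). There HXT7 and HXT6 overlapped between libraries, as did HXT2 and HXT3. Each single library nevertheless held the order given for its strain. HXT3 and HXT4 thus stood in opposite order in the 2 strains, without overlap in either. RGT1, RGT2, SNF3 and HXT5 were below HXT1 in both strains.

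As a share of the 7 carriers per kb, HXT1 and HXT3 together made up 10.9% and 11.1% in the WT libraries and 21.3% and 19.2% in the 9Myc-Swd2 libraries. HXT2, HXT6 and HXT7 together made up 76.6% and 76.1% in WT and 67.9% and 70.3% in 9Myc-Swd2. The tagged strain thus held a larger low-affinity share in both libraries, while high-affinity carriers stayed the larger part in every library. The size of these shares, and of the ratio and sums below, depends on how reads matching both HXT6 and HXT7 were counted. The log2 ratio of the low- over the high-affinity sum was -2.80 ± 0.03 in WT and -1.77 ± 0.14 in 9Myc-Swd2, a difference of 1.02. This sum over chosen genes is given with no p; an exact permutation of 2 libraries against 2 cannot give a two-sided p below 0.333. The difference was 1.04 with HXT4 and HXT5 counted as high-affinity carriers, and 0.92 to 1.12 with any one library left out.

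**Figure D3:**
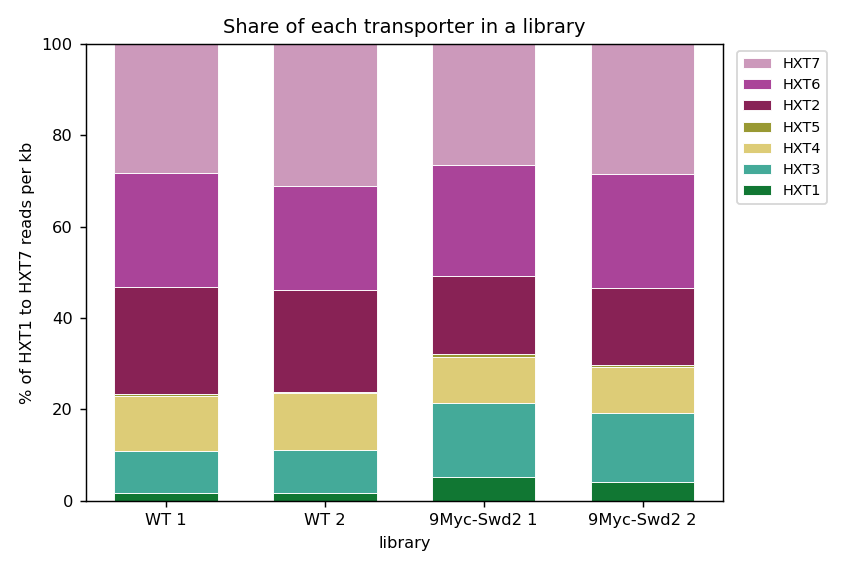
Stacked bars of the percentage of the summed HXT1 to HXT7 reads per kb that each carrier makes up in each of the 4 libraries. The green HXT1 and HXT3 segments take 10.9% and 11.1% in WT and 21.3% and 19.2% in 9Myc-Swd2, and the HXT2 segment narrows from 23.4% and 22.3% to 17.2% and 16.9%.

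The carriers as a whole took 0.829% and 0.783% of the reads in WT and 0.598% and 0.73% in 9Myc-Swd2. Summed per kb, they were at 38198 ± 1138 and 32685 ± 4692, a ratio of 0.856, and the second tagged library (36003) lay near the lower WT library (37394). HXT2, HXT3, HXT4, HXT6 and HXT7 were all lower in the first tagged library than in the second, whereas HXT1 was not.

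Neighbouring carrier genes included both genes that rose and genes that fell. HXT4, HXT1 and HXT5 lie in this order on chromosome VIII, and they had log2FC values of -0.50, 1.28 and -0.04. HXT7, HXT6 and HXT3, in this order on chromosome IV, had -0.34, -0.19 and 0.50. AHT1, a reading frame on the opposite strand between HXT4 and HXT1 that overlaps the printed HXT4 stretch, was at 59.9 and 58.3 normalized counts in WT and 85.1 and 88.7 in 9Myc-Swd2. It passed with a log2FC of 0.55 (adjusted p = 0.0197 by limma-trend), but not in the authors' deposited table (adjusted p = 0.14), without WT 1 (limma adjusted p = 0.0928) or without WT 2 (limma adjusted p = 0.13). YDR344C, between HXT6 and HXT3, was at 97.9 and 90.4 in WT and 78.7 and 105.8 in 9Myc-Swd2 and did not pass. Both were picked with their values already in view.

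Of the 2 sensor genes RGT2 rose and SNF3 did not pass, and the difference between them was not tested. RGT2 (YDL138W, chromosome IV, 213351 to 215642, plus strand), the receptor for high glucose, was at 421 and 429 normalized counts in WT and at 603 and 573 in 9Myc-Swd2. Both tagged libraries were above both WT libraries, and its log2FC was 0.47 ± 0.08 (adjusted p = 0.000252 by limma-trend). SNF3 (YDL194W, chromosome IV, 111580 to 114234, plus strand), the receptor for low glucose, was at 527 and 553 in WT and at 519 and 599 in 9Myc-Swd2. The groups overlapped, and its log2FC was 0.05 with an interval of -0.14 to 0.24 (adjusted p = 0.70 by limma-trend). Per kb, RGT2 over SNF3 had a log2 ratio of -0.11 and -0.16 in the WT libraries and of 0.43 and 0.15 in the tagged ones. The ratio was below 0 in both WT libraries and above 0 in both tagged ones, and no p is given for it.

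RGT1 (YKL038W, chromosome XI, 365605 to 369117, plus strand, 1 exon), the zinc cluster repressor of HXT genes, was at 933 and 894 normalized counts in WT and at 2316 and 2208 in 9Myc-Swd2. The groups stood far apart, and both libraries of each group were alike. The mean rose from 914 ± 27.7 to 2262 ± 76.5, a log2FC of 1.31 ± 0.07 (adjusted p = 1.76e-10 by limma-trend). The 318 other chromosome XI genes of at least 5 CPM had a median of 0.90 and an interquartile range of 0.69 to 1.10. RGT1 exceeded that median by 0.40, and 37 of the 318 genes (11.6%) exceeded RGT1. Between single libraries the log2 difference of RGT1 was 1.31 and 1.37 for 9Myc-Swd2 1 over WT 1 and WT 2, where the chromosome median was 0.94 and 0.93. For 9Myc-Swd2 2 it was 1.24 and 1.30, where the median was 0.89 and 0.90. What part of the rise of RGT1 goes with the chromosome was not tested beyond these values.

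Of the 3 annotated genes on either side of RGT1, 4 rose, where 90.6% of the 342 tested genes of chromosome XI did. PTM1 and NFU1, an iron-sulfur cluster protein gene, had log2FC values of 1.10 and 0.79 on the lower-coordinate side. UGP1, for the UDP-glucose pyrophosphorylase, and TUL1, for a Golgi ubiquitin ligase, had 0.99 and 0.94 on the other side. AIM26, next to RGT1, was at 92.2 and 78.7 normalized counts in WT and 98.9 and 94.8 in 9Myc-Swd2 and did not pass (adjusted p = 0.40 by limma-trend). The snoRNA gene SNR69, between PTM1 and RGT1, was not analysed here.

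**Figure D4:**
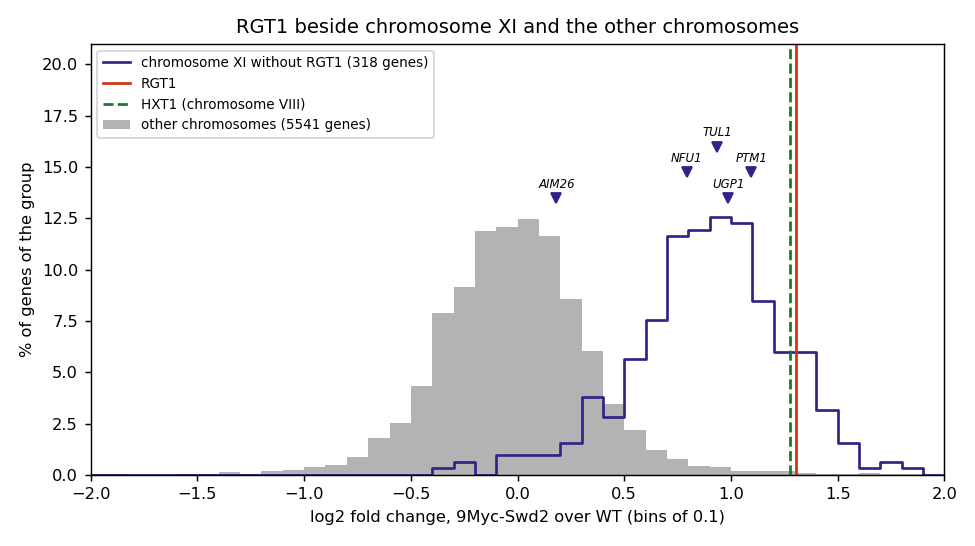
Distribution of log2FCs (9Myc-Swd2 over WT, bins of 0.1, as a percentage of each group's genes of at least 5 CPM) for 5541 genes of other chromosomes, of which 1 lies outside the axis, and for 318 genes of chromosome XI, with lines at RGT1 and HXT1 and triangles at neighbours of RGT1. RGT1 (1.31) lies in the upper part of the chromosome XI distribution, whose median is 0.90, and HXT1 (1.28) lies in the far upper tail of the other chromosomes, whose median is -0.02.

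The genes whose values over the 4 libraries were most like those of RGT1, by Euclidean distance of centred log2 values among 5860 genes of at least 5 CPM, were UBA1 (0.02), UBP11 (0.05) and MMO1 (0.06), all on chromosome XI. Those most like HXT1 were also on chromosome XI, namely MRP49 (0.02), RSM22 (0.05) and UBA1 (0.06). The genes most like HXT2 were HFM1 on chromosome VII (0.02), CAT5 on chromosome XV (0.05) and WIP1 on chromosome IV (0.06). Each distance rests on 4 values per gene.

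Among other carriers of the family, 10 were in the table and were low, with summed levels of 1513 to 1555 normalized counts per library. Of these 10, HXT9 rose, from 146 ± 5.03 to 208 ± 10.8, a log2FC of 0.51 (adjusted p = 0.00322 by limma-trend). HXT8 fell by 0.35 on the log2 scale (adjusted p = 0.0422 by limma-trend), a call that was lost without WT 1 (limma adjusted p = 0.0615), without WT 2 (0.37), without 9Myc-Swd2 2 (0.16) and with quantile normalization (0.12). The other 8 did not pass, where 22.3% of all genes tested rose and 21.4% fell. The median of the 10 was -0.06, where the median of all genes tested was 0.00. HXT9 and HXT8 belong to subtelomeric families with similar copies, so their single values are uncertain.

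In the pathway from the sensors to Rgt1, 4 of 10 genes rose and 2 fell, with a median log2FC of 0.13, where 22.3% of all genes tested rose and 21.4% fell. The number that fell was 1 without WT 1, without WT 2, without 9Myc-Swd2 2, with no filter and in the authors' deposited table. That number was also 1 with size factors without chromosome XI genes and with limma without a trend. TUP1, the corepressor that acts with Rgt1, rose from 1506 ± 88.3 to 2109.8 ± 165 normalized counts, a log2FC of 0.49. GRR1, the F-box subunit that recognizes Mth1 and Std1, rose from 921 ± 45.2 to 1264 ± 103, and the cullin gene CDC53 from 1488 ± 14.5 to 1969 ± 71.3. SKP1, which links the F-box subunit to the cullin, fell from 1197 ± 35.4 to 897 ± 78.5. MTH1 was at 2042 and 1775 in WT and at 2103 and 2164 in 9Myc-Swd2, with a log2FC of 0.16 that did not pass (adjusted p = 0.0832 by limma-trend). Leaving out WT 1 (0.0398) or 9Myc-Swd2 1 (0.0409) brought its limma adjusted p under the threshold, as did the replicate number as a block (0.0255). STD1 had a log2FC of -0.03 with an interval of -0.21 to 0.15.

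In the Snf1 and Mig1 pathway 6 of 16 genes rose and 5 fell, with a median of -0.09, against the same 22.3% and 21.4% of all genes. Without WT 2 the number that fell was 3. MIG1 was at 818 ± 46.2 normalized counts in WT and 761 ± 27.3 in 9Myc-Swd2 and did not pass (adjusted p = 0.30 by limma-trend). Of the related repressor genes, MIG3 rose from 171 ± 8.82 to 273 ± 15.4, a log2FC of 0.67. MIG2 rose by 0.30 (adjusted p = 0.008 by limma-trend), but did not pass in the authors' deposited table (adjusted p = 0.0518), without WT 1 (limma adjusted p = 0.0516), without WT 2 (0.082) or without 9Myc-Swd2 1 (0.0555). NRG1, for a repressor of glucose-repressed genes, fell from 399 ± 26.7 to 246 ± 14.1 (log2FC -0.69). SAK1, for a kinase that activates Snf1, rose by 0.37, and ELM1, for another such kinase, rose by 1.03 and lies on chromosome XI.

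All 3 hexose kinase genes passed, 2 higher and 1 lower, where 22.3% of all genes tested rose and 21.4% fell. HXK1 rose from 8354 ± 40.9 to 12584 ± 663 normalized counts and GLK1, for glucokinase, from 10032 ± 239 to 13526 ± 1223. HXK2, the main hexokinase of cells on glucose, fell from 10204 ± 109 to 8224 ± 138, a log2FC of -0.31 (adjusted p = 0.00324 by limma-trend, and 0.0559 without WT 2). In the glucose and cAMP pathway 4 of 11 genes rose and 1 fell, where 22.3% and 21.4% of all genes did. The number that fell was 3 under quantile normalization and 2 with libraries scaled to their total, and it was 0 without WT 1, without WT 2 and in the authors' deposited table. TPK3, a protein kinase A gene on chromosome XI, rose by 0.77, the adenylate cyclase gene CYR1 by 0.41 and the Ras inhibitor gene IRA1 by 0.43. With no filter on low values IRA1 did not pass (limma adjusted p = 0.0643). GPR1, for the glucose receptor of that pathway, rose from 892 ± 12.4 to 1075 ± 24.4 (adjusted p = 0.00526 by limma-trend, and 0.0714 without WT 2).

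Of 14 targets that glucose represses, 3 rose and 1 fell, and the number that rose is near the share of all genes (22.3%). The 3 that rose, FOX2, JEN1 and PCK1, are the 3 of the list on chromosome XI, with log2FC values of 0.79, 0.72 and 0.53. SUC2, the invertase gene and a classical Mig1 target, fell from 1053 ± 9.13 to 762 ± 35.7, a log2FC of -0.47 (adjusted p = 6e-05 by limma-trend). Off chromosome XI, 18.5% of all genes tested rose and 22.6% fell, and of the 11 targets there 0 rose and 1 fell in this fit. Those with adjusted p under 0.05 and a fall numbered 3 in the list with libraries scaled to their total, 3 without 9Myc-Swd2 2 and 2 under quantile normalization.

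**Figure D5:**
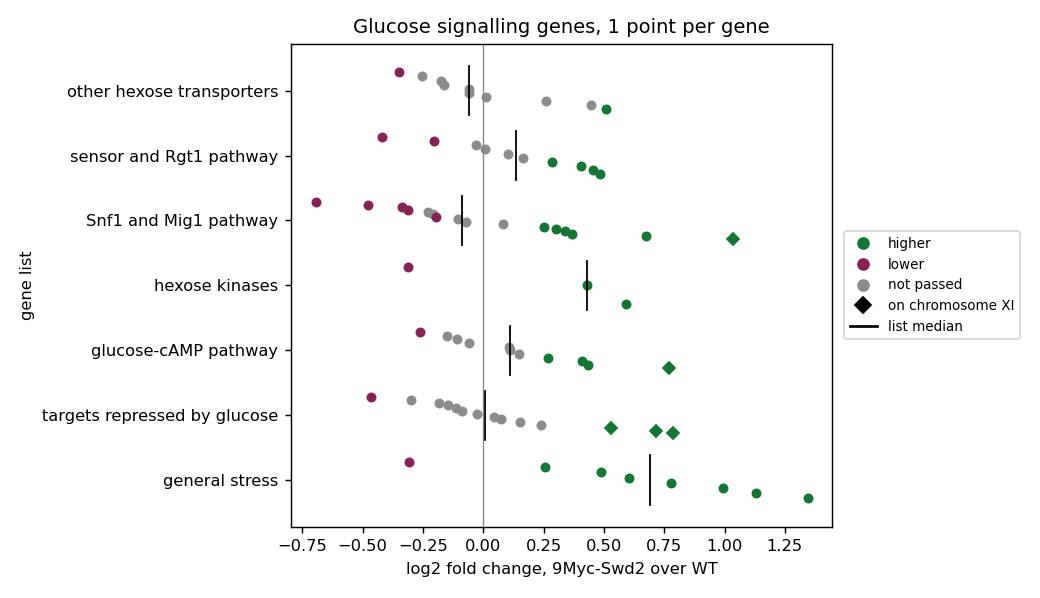
Log2 fold change (9Myc-Swd2 over WT) of each gene of 7 lists, coloured by its limma-trend call, with diamonds for genes on chromosome XI and a black line at each list's median. The lists of pathway genes spread to both sides of 0, and the 3 glucose-repressed targets that rose are diamonds, whereas 7 of 8 general stress genes lie to the right.

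Markers of other culture states were read beside these results. Of all genes tested, 22.3% rose and 21.4% fell, and off chromosome XI 18.5% rose and 22.6% fell. Of 8 genes of glucose-exhausted cells, 2 rose, both on chromosome XI, and 1 fell (2 without 9Myc-Swd2 2, under quantile normalization and with libraries scaled to their total), with summed levels of 4081 and 4078 normalized counts in WT and 3799 and 4079.7 in 9Myc-Swd2. None of the 8 was at 0. All 8 are also among the 14 glucose-repressed targets above, so their counts are not a second, separate reading. Of 8 general stress genes, 7 rose and 1 fell, with sums of 20163 and 20962 in WT and 31274 and 32726.5 in 9Myc-Swd2. DDR2 (log2FC 1.34), SSA4 (1.13), HSP26 (1.00) and TSL1 (0.78) had the smallest p of these, and CTT1, which fell by 0.31 on the log2 scale, was picked with its values in view. The call of CTT1 was lost without WT 2 (limma adjusted p = 0.16), with no filter on low values (0.0511) and in the authors' deposited table (0.067). The part of stress-associated change in the transporter values was not tested. Of the 4 genes of growth on glucose, ADH1 fell, by 0.46 on the log2 scale (adjusted p = 0.0069 by limma-trend, 0.0523 without WT 1 and 0.10 without WT 2). Under quantile normalization 3 of these 4 genes were lower, and with no filter 0 were. The number higher was 0 in the main fit. It was 1 with size factors without chromosome XI genes, with a filter at 5 CPM and with limma without a trend.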

How the data were processed

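Total RNA libraries of WT and 9Myc-Swd2 (2 each) were made with a directional kit, per the labels' protocols. The submitters' processing notes name bcl2fastq 1.8.4 and the build sacCer3. No source used here names the aligner, the counter or how strand was used. The authors deposited a signal, read counts divided by 1 size factor per library. Dividing each column by its smallest step gave whole reads for 100% of values (tolerance 1e-06). The authors' deposited comparison adds log2 fold changes, a test score, p-values with their adjustment, and the log10 of group means, which was not used.

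Values were tested here with limma 3.58.1 (limma-trend on log2(value + 1), with no covariate beside the group) over 6503 genes whose mean was 1 or more, two-sided, with Benjamini-Hochberg adjustment over all of them and a threshold of 0.05. Fold changes on this scale understate those of low genes. Errors are SDs over 2 libraries or standard errors (SE) of the fit. Coding lengths, positions and sequences came from RefSeq R64, the assembly that sacCer3 names; 89.8% of identifiers matched a locus tag. Scripts were tested on simulated data. edgeR 4.0.16 and DESeq2 1.42.0 ran on the recovered reads as alternatives. DESeq2 log2 fold changes differed from those deposited by at most 5.23e-05.

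Named genes are the members, up to 4 genes of smallest p per list among those past the threshold, MTH1, STD1, MIG1 and MIG2, the 3 neighbours of RGT1 on each side, and the 3 genes most like RGT1, HXT1 and HXT2. The members and lists were chosen with earlier results of these data known. HXT12, a pseudogene, was not analysed here. Depth was 7849193 to 8388090 reads per library, and replicates differed by more than sampling noise (chi-square per gene 3.37 and 8.66).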

Additional observations from a re-analysis of the deposited data

How the results depend on the processing

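HXT1, HXT2, HXT3, RGT2 and RGT1 kept their direction and call under all 16 alternatives tried for each. Their log2 fold changes ranged from 1.20 to 1.30, -0.78 to -0.51, 0.40 to 0.60, 0.41 to 0.50 and 1.23 to 1.34. HXT4 lost its call in 1 of 16 (limma adjusted p = 0.0598 with no filter). HXT7 kept its call in 8 of 15, with log2 fold changes from -0.54 to -0.14. Signs that reversed belonged to genes that did not pass. SNF3 was at -0.012 with libraries scaled to their total. With any one library left out, SNF3 ranged from -0.056 to 0.15, HXT5 from -0.12 to 0.029, STD1 from -0.12 to 0.056 and YDR344C from -0.25 to 0.17, with the sign of SNF3 and HXT5 reversed without 9Myc-Swd2 2. The members counted lower were 1 with no filter. At a minimum log2 fold change of 1, which is not among the 16, 2 members were higher and 0 lower, with 182 and 52 of all genes. There HXT1 and RGT1 kept their calls, and HXT2, HXT3, HXT4, HXT7 and RGT2 lost theirs. All genes counted higher and lower were 950 and 847 with no filter, and 882 were lower with limma without a trend. Leaving out one library gave 972 to 1596 genes higher and 780 to 1440 lower, with 4 members higher each time and 2 to 4 lower. RGT1 minus the chromosome XI median was 0.36 to 0.42 with any one library left out. The authors' deposited table and DESeq2 on recovered reads, 2 of the 16 with nearly the same values, each have 2 members lower, HXT2 and HXT4. The causes were not tested.

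Whether the replicate numbers of the labels pair the samples is not known. Deviations of same-numbered libraries correlated at 0.17 across 5860 genes, and with only 2 pairs this value cannot decide it. With the number as a replicate block 1619 genes were higher and 1566 lower, with 4 and 3 members. MTH1 passed under the block, with a log2 fold change of 0.16 (limma adjusted p = 0.0255), while 3 of the targets repressed by glucose and 2 markers of glucose exhaustion were lower and 2 of the other hexose transporters and 1 marker of growth on glucose were higher. Where a library was left out, the lone library of its group was assumed to vary like the others. The tagged pair differed more than the WT pair (chi-square per gene 8.66 and 3.37). Adjusted p from fits without a tagged library rest on the closer WT pair and can be too small. Those from fits without a WT library can be too large. Precision is limited by 2 libraries a group. The intervals rest in part on the spread of other genes of similar level, so they can be too narrow or too wide for a single gene. For HXT7 the SE was 0.11 in the main fit and 0.15 with limma without a trend, and for HXT5 it was 0.11 and 0.081.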
